A study of Homo sapiens with 9 samples.

Results

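Translation initiation and elongation factors are the proteins that bring the ribosome to an mRNA, find its start codon and feed aminoacyl-tRNAs into it. The 44 genes described here were taken by symbol from the deposited table: EIF1, EIF1AX, EIF1B, EIF2A, EIF2S1 to EIF2S3, EIF2B1 to EIF2B5, EIF3A to EIF3M, EIF4A1 to EIF4A3, EIF4B, EIF4E, EIF4E2, EIF4G1 to EIF4G3, EIF4H, EIF5, EIF5A, EIF5B, EIF6, EEF1A1, EEF1B2, EEF1D, EEF1G and EEF2. All 44 were among the 35876 symbols of the table, and all 44 passed the filter on low counts that left 11905 genes for testing.

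RNA sequencing was done on HEK293, a line of human embryonic kidney cells, in 3 groups of 3 replicates. The genotypes are given as CC_Cas9 (the Cas9 group), CC_Cas9_Cre (the Cre group) and CC_Cas9_Flpo (the Flpo group), so all 9 libraries carry CC and Cas9. Cas9 is an RNA-guided nuclease, and Cre and Flpo are site-specific recombinases. The series concerns a chemically induced, reversible knockout system, but the labels explain neither CC nor how the genes were delivered, and they name no target, chemical, dose or time. They do not say that the replicates came from separate cultures, so the p-values measure only the spread between these libraries, which may be technical.

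Initiation starts with eIF2, a complex of 3 subunits that binds GTP and carries the initiator tRNA to the small ribosomal subunit. eIF2B reloads eIF2 with GTP, and phosphorylation of the alpha subunit of eIF2 blocks that step, which is how stress kinases lower translation. eIF3 is the large scaffold on the small subunit, eIF4F (eIF4E, eIF4G and eIF4A) recognises the cap and unwinds the leader, and eEF1 and eEF2 drive elongation. Many mRNAs of elongation factors and ribosomal proteins begin with a run of pyrimidines, the terminal oligopyrimidine tract, through which mTOR signalling controls their translation.

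Some of the transcript starts of these genes hold such a tract. A start counted as a pyrimidine tract where the first base was C and at least 4 further bases, each C or T, followed without a break. RefSeq promoter entries (GRCh38.p14) were matched for 37 of the 44 genes, and 10 of the 37 (27.0%) began that way, compared with 1429 of all 35116 promoter entries (4.07%). The 10 were EIF2A, EIF2S3, EIF3D, EIF3F, EIF3K, EIF3M, EIF4A2, EIF4B, EEF1A1 and EEF2. Shown are 10 bases before and 20 bases from the annotated start, 5′ to 3′ on the gene's strand, with the tract in capitals, for 4 genes that hold it and 4 that do not. They are EIF2S3 (chrX:24054946-24054975, plus strand), EIF3F (chr11:7987327-7987356, plus strand), EEF1A1 (chr6:73521013-73521042, minus strand), EEF2 (chr19:3985444-3985473, minus strand), EEF1B2 (chr2:206159599-206159628, plus strand), EIF4G2 (chr11:10807977-10808006, minus strand), EIF2S1 (chr14:67360318-67360347, plus strand) and EIF4H (chr7:74174346-74174375, plus strand). All but EEF2 were among the genes that differed between the recombinase groups, so that both kinds of start can be seen among them.
EIF2S3: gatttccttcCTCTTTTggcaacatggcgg
EIF3F: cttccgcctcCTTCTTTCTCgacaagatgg
EEF1A1: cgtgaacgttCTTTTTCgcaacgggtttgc
EEF2: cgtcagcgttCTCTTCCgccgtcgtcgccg
EEF1B2: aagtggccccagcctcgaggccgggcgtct
EIF4G2: tgtcggaagcacttccctaacttgcgcctg
EIF2S1: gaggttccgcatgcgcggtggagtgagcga
EIF4H: ctcgctcaccctggttcctctcggagcgga
A match describes the letters at one annotated start and is neither a site nor a cause.

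Total estimated counts ran from 993902 to 3761779 with Cas9 alone, from 213907 to 1701730 with Cre and from 4989524 to 8833491 with Flpo, so every Flpo library was deeper than every Cre library. Levels are given in CPM, which sets each library's counts to the same total after edgeR's TMM factors, and values by library stand in the order of replicates 1, 2 and 3. A floor of 3 counts was 11 CPM in Cre replicate 2 and between 0.473 and 2.55 CPM in the other libraries. In Cre replicate 2 the 44 genes had a median of 12.5 counts each, EIF2A was at 0, and 27 of the 44 reached 10 counts, while all 44 did so in each Flpo library. With the log2 library total added to the fit as a covariate, 0 of the 44 genes passed in Cre minus Flpo (1 at an unadjusted p under 0.05), so depth and group cannot be told apart in that fit. With every library thinned once to the smallest total, 11 of the 37 members still testable passed, beside 22.4% of all genes tested in that fit.

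The HEK293 marker list (11 genes, all with counts, led by KRT8, with PAX2 at 1 count in total) summed to 635 to 1409 CPM in the Cas9 libraries, 544 to 1099 in the Cre libraries and 1595 to 5360 in the Flpo libraries. Different genes led this sum. Flpo replicate 1 held 18832 counts of KRT8, 9130 of KRT18, 2954 of VIM and 67 of NEFL. Cre replicate 2 held 32, 15, 239 and 7 counts of the same genes, so the sum does not follow the list as a whole. Fibroblast markers (6 genes, all with counts, led by COL1A2) summed to 262 to 891, 546 to 6457 and 251 to 325 CPM, highest in Cre replicate 2, the library of smallest total. Their counts varied less than the totals did. COL1A1 ran from 132 to 501 counts over the 9 libraries, COL1A2 from 209 to 1052 and COL3A1 from 112 to 319, while the totals differed up to 41.3-fold. Liver markers (11 genes, FGB at 0) summed to 28.5 to 94.8, 61.7 to 132 and 10.4 to 135 CPM, and blood markers (6 genes, CD3E at 0) to 3.3 to 13.6, 0 to 3.86 and 8.03 to 9.39 CPM. The part of depth and of other cells in the differences below was not tested beyond the fits named, and in bulk RNA fewer cells of a type and less RNA per cell cannot be told apart.

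The 44 genes together held 0.779%, 1.11% and 1.36% of all counts with Cas9 alone, 1.09%, 0.412% and 0.581% with Cre, and 1.75%, 0.878% and 1.68% with Flpo. The ranges of the Cre and Flpo groups overlapped on this scale, since Cre replicate 1 lay above Flpo replicate 2. Compared per transcript length (in TPM-like units), EEF1G was the most abundant member, with a mean of 1929 over the 9 libraries, followed by EEF1A1 at 955, EEF1D at 609, EIF4A1 at 479 and EIF3I at 391. EEF1A1 delivers aminoacyl-tRNA to the ribosome, and EEF1G and EEF1D belong to the eEF1B complex that recharges it with GTP. EIF2B2, a regulatory subunit of eIF2B, had the lowest level per length at 5.6. These 5 leading genes were the same when the length of the longest principal transcript was used, but EIF4E moved from rank 13 to rank 35 and EIF3F from rank 14 to rank 30. The order of EEF1G and EEF1A1 depends on the lengths taken. For EEF1G 1523 bases were used both times, and for EEF1A1 3447 and then 4441. The second choice thus could not have put EEF1A1 first.

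**Figure D1:**
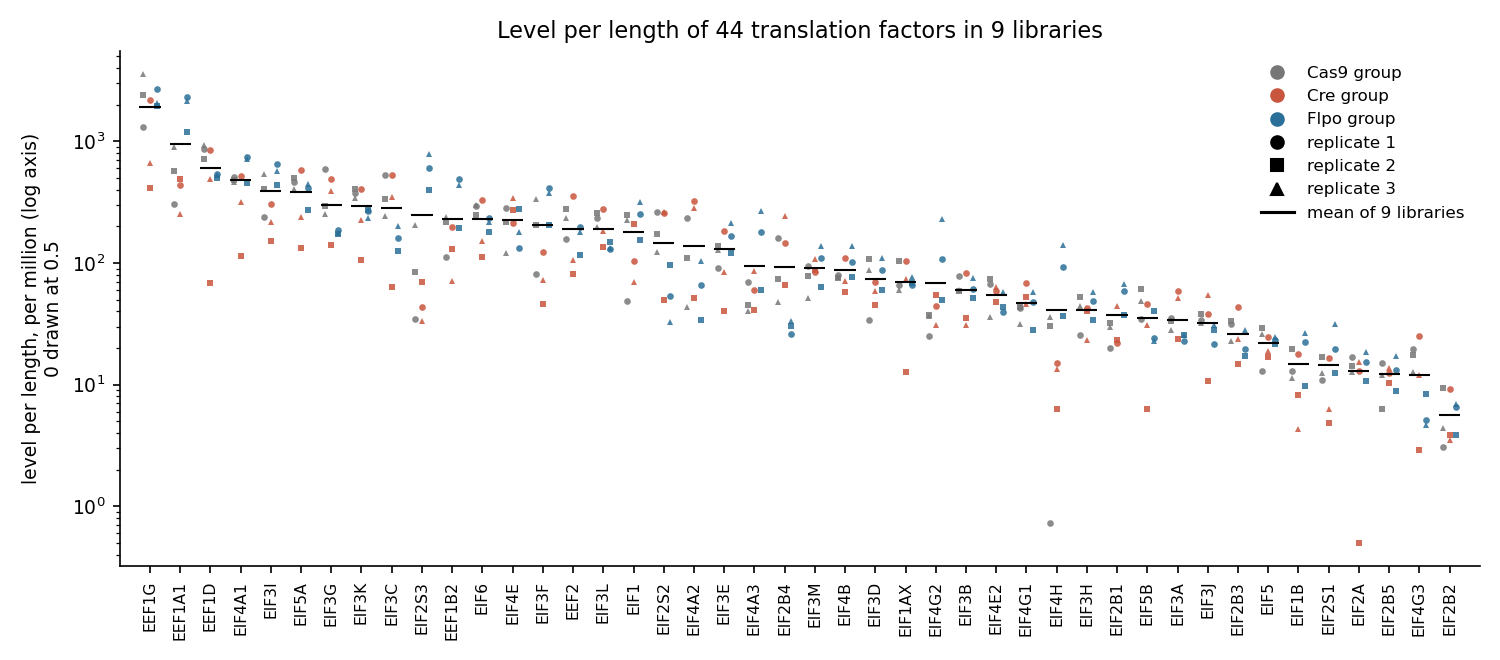
Level per transcript length (TPM-like units, log axis) of each of the 44 genes in each of the 9 libraries, ordered by the mean over libraries. EEF1G and EEF1A1 lie at the top, at means of 1929 and 955, and EIF2B2 lies at the bottom at 5.6.

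EEF1G had a higher mean per length than EEF1A1 in every group, but in CPM its mean was the lower with Flpo (3129 against 6019). Per length, EEF1G stood at 2440 ± 1127 with Cas9 alone, 1091 ± 964 with Cre and 2255 ± 404 with Flpo (SD, n = 3 each). EEF1A1 stood at 591 ± 294, 395 ± 123 and 1880 ± 602 (SD, n = 3 each). With Cre and with Flpo their means differed by less than the larger of the SDs, so these neighbours did not differ beyond their spread in those groups.

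Cre was compared with Flpo to set the recombinase groups against each other. In edgeR's quasi-likelihood test 10 of the 44 genes passed a Benjamini-Hochberg adjusted p of 0.05 and all 10 were lower in the Cre group, which is 22.7% of the genes beside 14.3% of all tested genes called lower. None was higher, beside 6.17% of all tested genes, and 20.5% of all tested genes were called in either direction, a share near that of the members. They were EIF2S1, EIF2S3 and EIF2B1 of eIF2 and eIF2B, EIF3F and EIF3I of eIF3, EIF4A3, EIF4G2 and EIF4H of the eIF4 group, and EEF1A1 and EEF1B2 of elongation. For 21 of the 44 genes (47.7%) every Cre library lay below every Flpo library, beside 27.8% of all tested genes. The reverse held for 0 of the 44, beside 15.3% of all tested genes, and 43.1% of all tested genes did not overlap in either direction. The estimated fold change was negative for 40 of the 44, with a median of −1.21 (log2) against −0.34 over all tested genes, and 37 lay below that median. The direction depended on the scaling. Without TMM scaling 2039 of all tested genes were called higher and 840 lower in the Cre group, in place of 735 and 1705. The members then split into 4 called lower (EEF1A1, EIF2S3, EIF3F and EIF4H) and 1 called higher (EIF2B4). The median over all genes moved to 0.44 and that of the members to −0.41. Changes are therefore also given relative to the median of all genes, at which the members' median was −0.87 with TMM scaling and −0.85 without it. It was −0.04 with no filter on low counts, where 23 of the 44 lay below the median of all genes, and −0.09 with the library total as a covariate. The calls depended on single libraries. Without replicate 2 or 3 of Cre or replicate 1 of Flpo, 0 members were called (15, 11 and 12 at an unadjusted p under 0.05), beside 0% of all tested genes. Without replicate 3 of Flpo 1 member was called, beside 3.28% of all tested genes. With all 9 libraries, 23 of the 44 members had an unadjusted p under 0.05, beside 4734 of all 11905 tested genes.

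**Figure D2:**
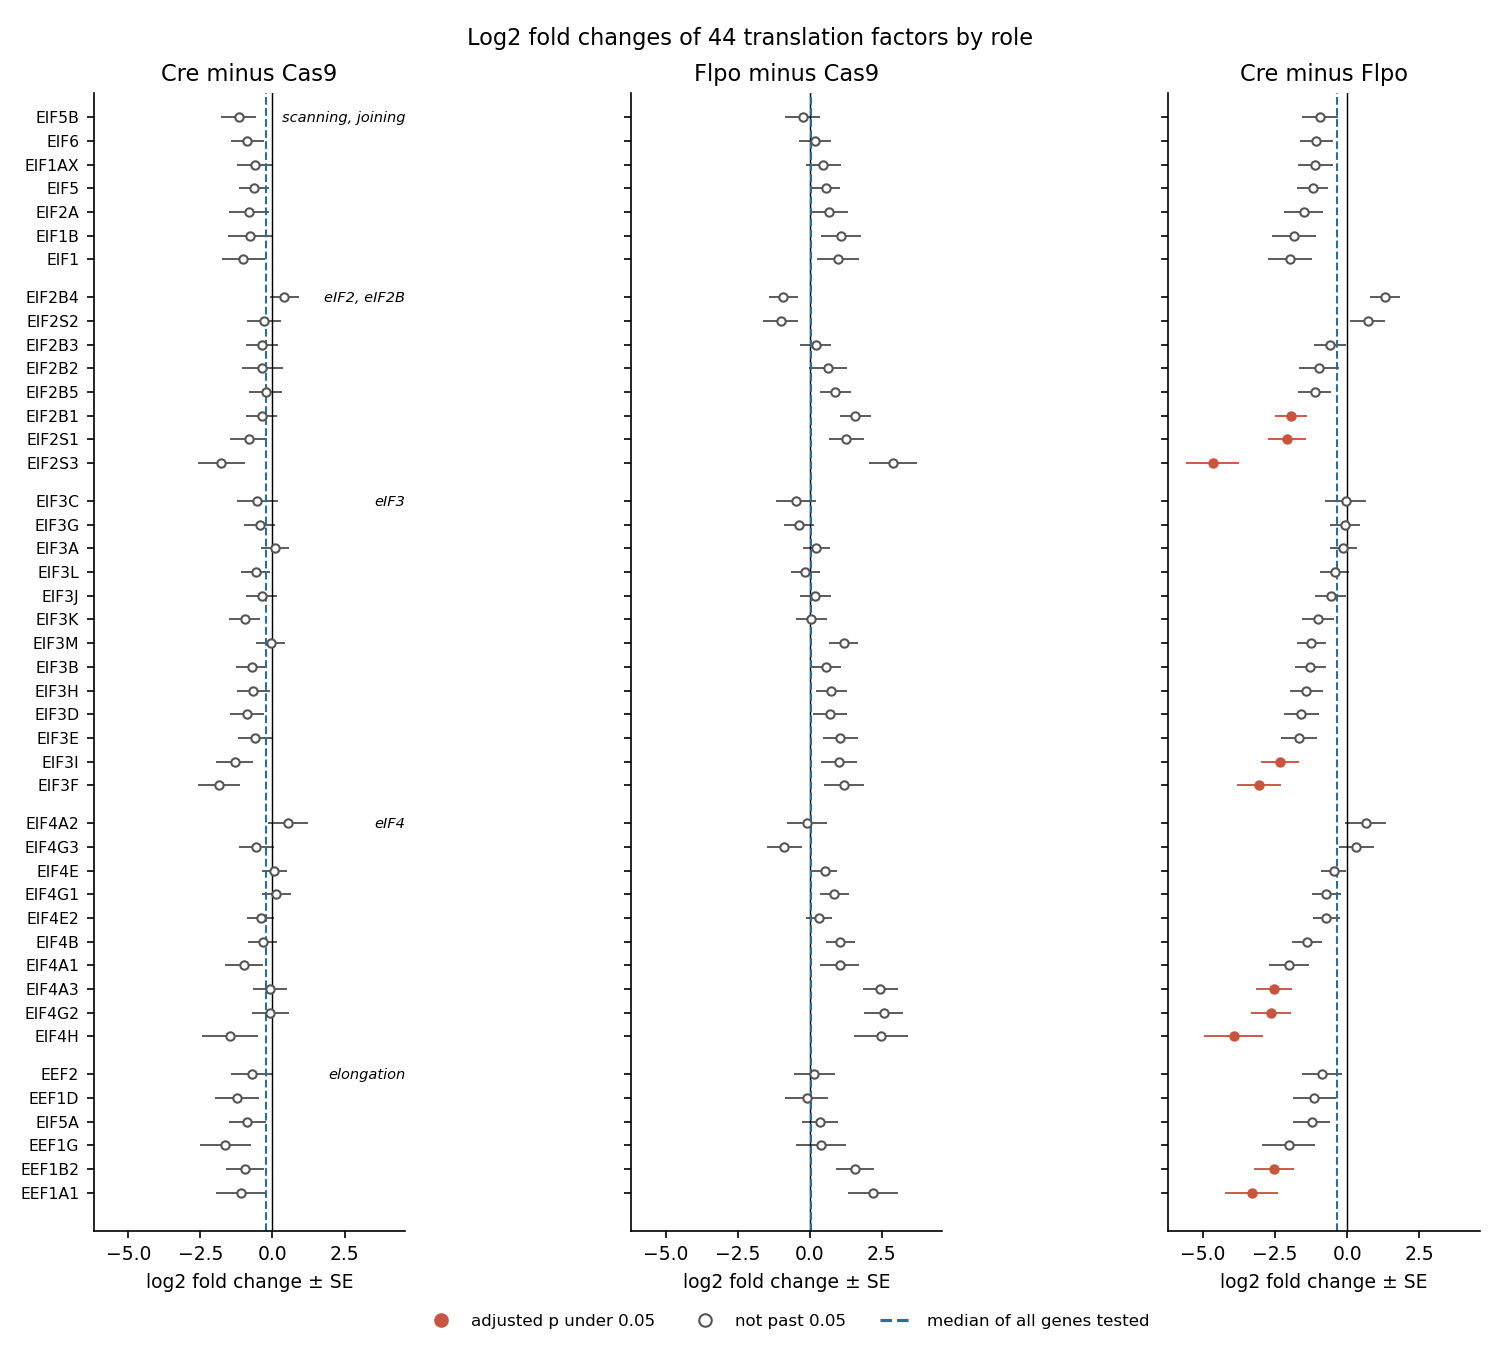
Log2 fold change with its standard error for each of the 44 genes in the 3 comparisons, grouped by role; filled points passed an adjusted p of 0.05 and the dashed line is the median of all tested genes. Filled points appear in Cre minus Flpo alone, where 10 genes lie left of the dashed line at −0.34.

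In eIF2 and eIF2B, 3 of 8 members (37.5%) were called lower with Cre than with Flpo, beside 14.3% of all tested genes. The median of all 8 was −1.05. EIF2S3 encodes the gamma subunit of eIF2, which binds GTP and the initiator tRNA (chromosome X, 24054716 to 24077971 in GENCODE 29 on GRCh38). Its level was 43.7, 144 and 440 CPM with Cas9 alone, 60.3, 88.2 and 37.4 CPM with Cre, and 1849, 778 and 2016 CPM with Flpo. All 3 Flpo libraries lay above the other 6. Its fold change was −4.67 ± 0.91 (log2, SE), or 25.4-fold lower in the Cre group, with an edgeR adjusted p of 0.0167 and a change of −4.33 relative to the median of all genes. Of its transcript sequence, 34.0% of the 31-base words also occurred in other genes, chiefly EIF2S3B, so its counts are partly uncertain. EIF2S3B was given at most 3 estimated counts in any library.

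EIF2S1 encodes the alpha subunit of eIF2, the one that stress kinases phosphorylate (chromosome 14, 67359997 to 67386516). Its level was 16.5, 34.6 and 31.6 CPM with Cas9 alone, 27.5, 7.35 and 8.5 CPM with Cre and 73.1, 29.2 and 97.3 CPM with Flpo. The highest Cre library lay just under the lowest Flpo library, and Cre replicate 2 was below its floor of 3 counts. The fold change was −2.08 ± 0.65 (log2, SE), with an edgeR adjusted p of 0.041, the largest among the 10. EIF2S2, the beta subunit, did not pass (0.71 ± 0.61, edgeR adjusted p = 0.386) and stood at 333, 58.8 and 271 CPM with Cre and 154, 176 and 78.8 CPM with Flpo. The subunits of one complex thus had estimates on both sides of 0.

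EIF2B1 encodes the alpha subunit of eIF2B, a regulatory subunit that senses phosphorylated eIF2 (chromosome 12, 123620406 to 123633766). Its level was 15.7, 34.1 and 39.3 CPM with Cas9 alone, 18.8, 18.4 and 30.6 CPM with Cre and 113, 45.8 and 107 CPM with Flpo. Cre and Flpo did not overlap, and the fold change was −1.95 ± 0.56 (log2, SE; edgeR adjusted p = 0.0309). Exons of DDX55 and GTF2H3 overlap 15.6% of its exonic sequence, and the use of strand in the counting is not given in the sources used here. EIF2B4, the delta subunit, had the highest estimate of all 44 members, 1.32 ± 0.51, and did not pass (edgeR adjusted p = 0.0785). Its Cre libraries stood at 125, 51.5 and 169 CPM and its Flpo libraries at 50, 37 and 52.9 CPM. EIF2B2, EIF2B3 and EIF2B5 had estimates of −0.98, −0.58 and −1.13 and none passed.

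In eIF3, 2 of 13 members (15.4%) were called lower with Cre than with Flpo, near the 14.3% of all tested genes. The estimates of all 13 were at or below −0.05. EIF3F encodes a subunit of eIF3 (chromosome 11, 7970251 to 8001862). Its level was 44.5, 156 and 312 CPM with Cas9 alone, 75.7, 25.7 and 35.7 CPM with Cre and 559, 179 and 427 CPM with Flpo. Cre and Flpo did not overlap, whereas the Cas9 libraries overlapped both groups. The fold change was −3.04 ± 0.76 (log2, SE), or 8.24-fold lower in the Cre group, with an edgeR adjusted p of 0.0211.

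EIF3I, a WD-repeat subunit bound to EIF3B and EIF3G, was the most abundant eIF3 member per length (chromosome 1, 32221928 to 32231604). Its level was 153, 353 and 588 CPM with Cas9 alone, 215, 99.3 and 125 CPM with Cre and 1032, 440 and 745 CPM with Flpo. Cre and Flpo did not overlap, and the fold change was −2.33 ± 0.66 (log2, SE; edgeR adjusted p = 0.0302). EIF3A, the largest scaffold subunit, stood at 158, 58.8 and 113 CPM in the Cre group and 138, 99 and 129 CPM in the Flpo group, ranges that overlapped (−0.13 ± 0.47, edgeR adjusted p = 0.85). EIF3C and EIF3G, 2 further subunits, had estimates of −0.05 and −0.07. Of the EIF3C sequence, 97.5% is shared with other genes, chiefly its copy EIF3CL, so these 2 loci cannot be counted apart. The remaining 8 subunits (EIF3B, EIF3D, EIF3E, EIF3H, EIF3J, EIF3K, EIF3L and EIF3M) had estimates from −1.66 for EIF3E to −0.44 for EIF3L, and none passed.

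In the eIF4 group, 3 of 10 members (30%) were called lower with Cre than with Flpo, beside 14.3% of all tested genes. EIF4A3 is a helicase of the exon junction complex, which marks spliced mRNA, and not of the cap complex itself (chromosome 17, 80135214 to 80147183). Its level was 48.6, 43.7 and 48 CPM with Cas9 alone, 46.3, 29.4 and 53.6 CPM with Cre and 312, 66.2 and 383 CPM with Flpo. The Cas9 and Cre libraries lay in one narrow band and all 3 Flpo libraries lay above it, with replicate 2 well under the other two. The fold change was −2.53 ± 0.62 (log2, SE), or 5.77-fold lower in the Cre group, with an edgeR adjusted p of 0.0204, and none of its 31-base words occurred in another gene.

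EIF4G2 (also called DAP5) is an eIF4G relative that lacks the site for eIF4E and serves cap-independent initiation (chromosome 11, 10797050 to 10809110). Its level was 40.4, 81.8 and 98.9 CPM with Cas9 alone, 79.1, 88.2 and 44.2 CPM with Cre and 429, 124 and 752 CPM with Flpo. Again every Flpo library lay above all 6 others, with an edgeR fold change of −2.64 ± 0.68 (log2, SE; adjusted p = 0.0234) in Cre minus Flpo. EIF4H stimulates the eIF4A helicase (chromosome 7, 74174245 to 74197101). Its level was 0.824, 47.1 and 69.2 CPM with Cas9 alone, 18.8, 7.35 and 13.6 CPM with Cre and 260, 65.7 and 327 CPM with Flpo. Cas9 replicate 1 held a single count of it and Cre replicate 2 was under its floor. The fold change was −3.93 ± 1.03 (log2, SE; edgeR adjusted p = 0.0241), 15.2-fold lower in the Cre group.

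EIF4A1, the main helicase of the cap complex, lay just outside the threshold (−2.02 ± 0.68, edgeR adjusted p = 0.0518). Its level was 368, 475 and 569 CPM with Cas9 alone, 418, 84.6 and 203 CPM with Cre and 1314, 512 and 1051 CPM with Flpo. Cre and Flpo did not overlap, but all of its sequence words are shared with other genes and its 13 pseudogenes held 20.7% of the joint counts in Cre replicate 2. AC016876.2, which shares 95.1% of the words, was absent from the deposited table. EIF4A2, the second cap-complex helicase, had an estimate of 0.64 ± 0.70 with overlapping groups (edgeR adjusted p = 0.5). EIF4E, the cap-binding protein, differed little (115, 136 and 148 CPM in the Cre group, 159, 211 and 181 CPM in the Flpo group; edgeR adjusted p = 0.425), although the groups did not overlap. EIF4G3, a cap-complex scaffold, had an estimate of 0.32, and EIF4B, EIF4G1 and EIF4E2 had estimates of −1.40, −0.72 and −0.72, with none past the threshold.

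**Figure D3:**
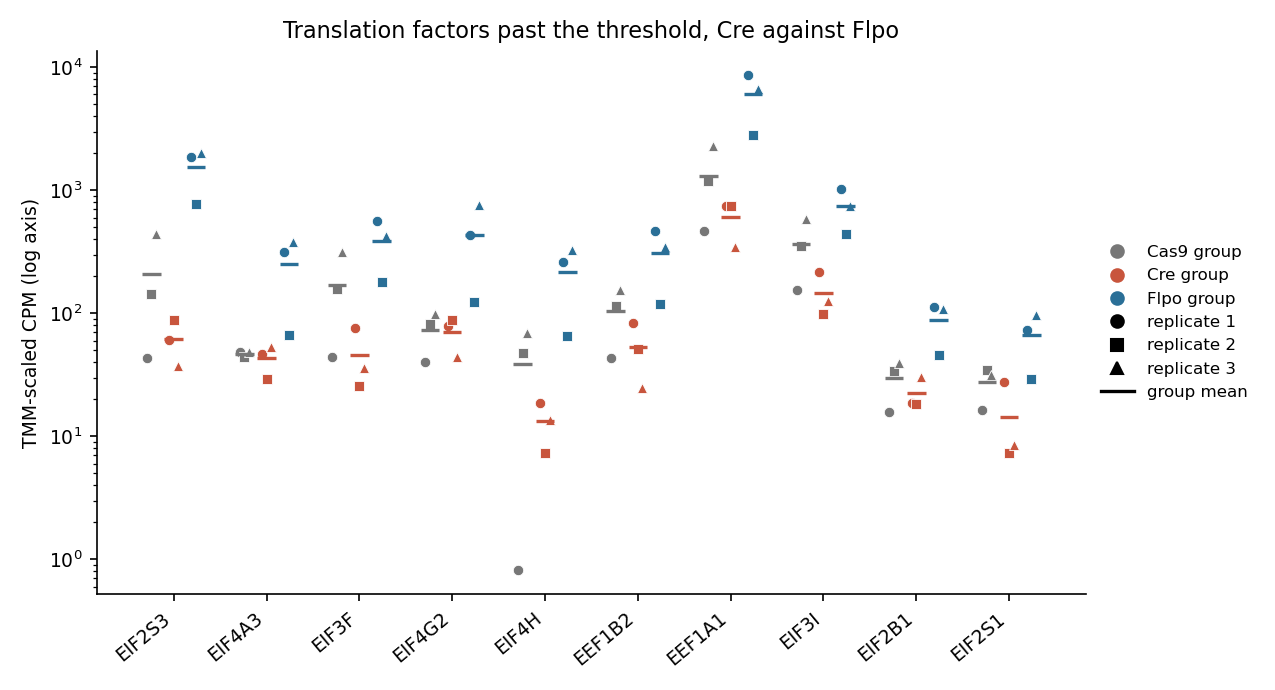
CPM (TMM scale, log axis) of the 10 genes called lower in Cre than in Flpo, with a point for each library by group. Every Flpo library lies above every Cre library for all 10 genes, and Flpo replicate 2 is the lowest Flpo library for each.

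In elongation, 2 of 6 members (33.3%) were called lower with Cre than with Flpo, beside 14.3% of all tested genes. EEF1A1 stood at 466, 1180 and 2297 CPM with Cas9 alone, 739, 750 and 344 CPM with Cre and 8563, 2822 and 6671 CPM with Flpo (chromosome 6, 73515750 to 73523797). Every Flpo library lay above all 6 others, with a fold change of −3.30 ± 0.92 (log2, SE; edgeR adjusted p = 0.0289), 9.86-fold lower in the Cre group. The gene alone took 0.568%, 0.225% and 0.502% of all counts with Flpo and at most 0.0954% in a Cre library. It has 39 annotated pseudogenes, which held from 0.611% to 16.7% of the joint counts, and with them added the levels were 758, 901 and 372 CPM with Cre and 8714, 3131 and 6811 CPM with Flpo. The groups still did not overlap.

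EEF1B2 encodes the beta subunit of eEF1B, which exchanges the nucleotide on eEF1A (chromosome 2, 206159585 to 206162928). Its level was 43.7, 114 and 156 CPM with Cas9 alone, 83.9, 51.5 and 24.7 CPM with Cre and 466, 118 and 344 CPM with Flpo. The fold change was −2.53 ± 0.69 (log2, SE; edgeR adjusted p = 0.0276). Of its sequence words 52.1% occur in other genes, and in Cre replicate 2 its 8 pseudogenes held 46.2% of the joint counts. With them added the Cre libraries stood at 86.3, 95.6 and 32.3 CPM and the Flpo libraries at 471, 124 and 350 CPM, which did not overlap either.

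EEF1G, the gamma subunit of eEF1B, did not pass (−2.03 ± 0.91, edgeR adjusted p = 0.116). Its level was 883, 2223 and 4049 CPM with Cas9 alone, 1624, 283 and 394 CPM with Cre and 4469, 2053 and 2863 CPM with Flpo. The Cas9 libraries overlapped both other groups, and 99.9% of its sequence words are shared with other annotated genes, chiefly AP002990.1. That gene was given 0 to 120 estimated counts per library. EEF2, the translocation factor, stood at 543, 114 and 132 CPM in the Cre group and 682, 254 and 515 CPM in the Flpo group, with overlap (edgeR adjusted p = 0.363). EEF1D and EIF5A, the latter needed for stretches of proline, had estimates of −1.13 and −1.23 and did not pass.

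None of the 7 factors of start codon selection and subunit joining passed, though all 7 had negative estimates (median −1.19). Of the 7, 4 had an unadjusted p under 0.05, beside 4734 of all 11905 tested genes. EIF6, which keeps the large subunit from joining too early, was the most abundant of them per length. Its level was 162, 186 and 278 CPM with Cas9 alone, 200, 62.5 and 74.8 CPM with Cre and 315, 154 and 246 CPM with Flpo, and the groups overlapped (−1.06 ± 0.56, edgeR adjusted p = 0.17). EIF1, which guards the choice of start codon, had the lowest estimate of the group (−1.99 ± 0.76, edgeR adjusted p = 0.0741). EIF1B, EIF2A, EIF5, EIF1AX and EIF5B had estimates of −1.85, −1.50, −1.19, −1.10 and −0.94.

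Because members of one complex are counted in the same library, their ratio does not depend on the scaling between libraries. The pairs below were chosen after their values were seen and are given without a test. The ratio of EIF2S3 to EIF2S2 counts was 0.142, 0.526 and 1.82 with Cas9 alone, 0.181, 1.5 and 0.138 with Cre and 12, 4.42 and 25.6 with Flpo. Estimated counts of EIF2S3 RNA, not corrected for length, were at least 4.42 times those of EIF2S2 in every Flpo library. Of the EIF2S2 sequence words 29.2% occur in other genes, chiefly EIF2S2P4. Protein was not measured, so the ratio does not give the balance of subunits in the complex. The ratio of EIF2B1 to EIF2B4 was 0.126, 0.432 and 0.632 with Cas9 alone, 0.15, 0.357 and 0.181 with Cre and 2.27, 1.24 and 2.03 with Flpo. The Cre and Flpo libraries lay on opposite sides of 1. The ratio of EIF3F to EIF3A was 0.519, 1.4 and 2.66 with Cas9 alone, 0.479, 0.438 and 0.316 with Cre and 4.05, 1.81 and 3.31 with Flpo. Cas9 replicate 3 lay within the Flpo range there. Each of these ratios rose from Cas9 replicate 1 to replicate 3, as the library totals did, and whether the ratios varied with depth was not tested.

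Helicases of the eIF4A family also stood in different ratios. The ratio of EIF4A1 to EIF4A2 was 1.41, 1.92 and 0.972 with Cre and 9.72, 11.6 and 5.94 with Flpo. With Cas9 alone it was 1.87, 3.75 and 9.15, so Cas9 replicate 3 lay within the Flpo range. The ratio of EIF4A3 to EIF4A2 was 0.247, 0.345 and 0.773 with Cas9 alone, 0.156, 0.667 and 0.256 with Cre and 2.31, 1.49 and 2.16 with Flpo. Both ratios also rose with the totals of the Cas9 libraries. In elongation, the ratio of EEF1A1 to EEF1G was 0.528, 0.531 and 0.567 with Cas9 alone, 0.455, 2.65 and 0.873 with Cre and 1.92, 1.37 and 2.33 with Flpo. Here Cre replicate 2, the shallowest library, lay above all Flpo libraries, so the groups overlapped. The ratio of EIF4G2 to EIF4G3 was 0.831, 1.36 and 1.84 with Cas9 alone, 1.14, 12 and 1.68 with Cre and 13.6, 3.81 and 31.4 with Flpo. Cre replicate 2 lay above Flpo replicate 2 there, with 2 counts of EIF4G3, fewer than the floor of 3.

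**Figure D4:**
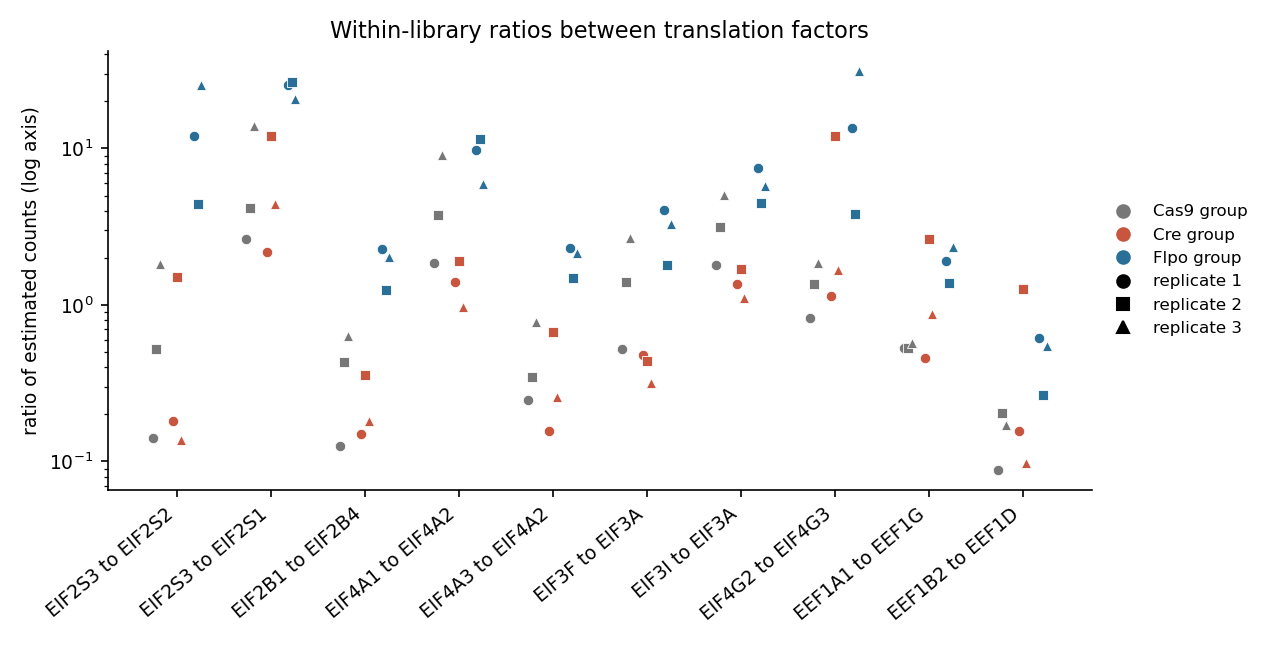
Ratio of counts of paired factors within each library (log axis), by group, for pairs chosen after their values were seen. For EIF2S3 to EIF2S2 the Flpo libraries lie at 4.42 to 25.6 and the Cre libraries at 0.138 to 1.5.

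Flpo was compared with Cas9 to ask what Flpo added to cells with Cas9. None of the 44 members passed in edgeR's test, where 0.227% of all tested genes were called (0.218% higher and 0.0084% lower with Flpo). Of the 44, 8 had an unadjusted p under 0.05, beside 2378 of all 11905 tested genes. DESeq2 called 4 members, beside 7.55% of all genes, a share near that of the members. The estimate was positive for 35 of the 44, with a median of 0.59 against 0.05 over all tested genes. All 3 Flpo libraries lay above all 3 Cas9 libraries for 6 members (EEF1A1, EIF2S3, EIF4E, EIF4A3, EIF4G2 and EIF2B1), near the 12.7% of all tested genes, and below them for 4 (EIF3C, EIF2S2, EIF2B4 and EIF4G3), near the 12.3% of all tested genes. In either direction the groups did not overlap for 25% of all tested genes. The smallest p-values belonged to EIF4A3 (2.44 ± 0.61, log2; edgeR adjusted p = 0.0747) and EIF4G2 (2.56 ± 0.67; edgeR adjusted p = 0.0827), whose values by library are given above. EIF2S3 had the highest estimate, 2.89 ± 0.83 (edgeR adjusted p = 0.098).

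Cre was compared with Cas9 to ask what Cre added. None of the 44 members passed in edgeR's test, as was true of all tested genes (0%), and DESeq2 also called 0 members. Of the 44, 2 had an unadjusted p under 0.05, beside 879 of all 11905 tested genes. The estimate was negative for 39 of the 44, with a median of −0.63 against −0.22 over all tested genes. The groups did not overlap for 1 member, EIF2A, lower in the Cre group, beside 6.43% of all tested genes. No member was higher without overlap, beside 3.44% of all tested genes, and 9.86% of all tested genes did not overlap in either direction. The smallest p-values were those of EIF3F (−1.86 ± 0.73, log2; edgeR adjusted p = 0.619) and EIF2S3 (−1.78 ± 0.81; edgeR adjusted p = 0.619). The 3 comparisons share libraries in pairs, so their values for a gene are not independent of each other.

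A test of any difference among the groups, again with edgeR, passed 4 of the 44 members (9.09%, beside 9.51% of all tested genes), a share near the background. They were EIF2S3 (adjusted p = 0.0183), EIF4A3 (0.0236), EIF4G2 (0.0281) and EIF4H (0.0409). Each of these 4 had its highest mean in the Flpo group.

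The members called lower with Cre than with Flpo included genes with and without a pyrimidine tract. In Cre minus Flpo, 3 of the 10 genes with a tract passed (EIF2S3, EIF3F and EEF1A1) and 7 of the 27 matched genes without one did, with median estimates of −1.45 and −1.19. Among all tested genes with a promoter entry, 499 of 8994 (5.55%) had a tract, their median was −0.79 against −0.39 without it, and 19.6% and 19.2% were called. The E-box CACGTG, the sequence bound by MYC and its partner MAX, which reads the same on both strands, was searched from 250 bases before to 50 bases after the start. It lay in 9 of the 37 matched members (24.3%) and in 2548 of all 35116 promoter entries (7.26%), or in 923 of the 8994 tested genes with an entry (10.3%). The members' medians with and without it were −1.40 and −1.24, and those of all tested genes −0.58 and −0.40.

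Genes that regulate or complement these factors were taken from 7 lists of 71 genes, of which 66 were tested. In Cre minus Flpo 16 passed in edgeR's test (24.2%, beside 20.5% of all tested genes), a share near the background for either direction. The split was not near it. In the Cre group 15 were lower and 1 higher, or 6.25% higher, beside 30.1% of all called genes. Without TMM scaling 6 were called lower and 5 higher, the latter being GFM1, EEF1A2, EEF2K, EIF2AK4 and MKNK1. Of the 66, 22 were lower without overlap (33.3%, beside 27.8% of all tested genes) and 7 higher (10.6%, beside 15.3%). Leaving out single libraries moved the count of pathway genes past the threshold between 0 and 29, beside 0% to 44.1% of all tested genes.

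In the list of eIF2 kinases and phosphatases 4 of 9 tested genes were lower with Cre than with Flpo, beside 14.3% of all tested genes, and all 4 encode subunits of phosphatases that can remove phosphate from eIF2 alpha. PPP1R15A (also called GADD34), its stress-induced targeting subunit, had a fold change of −2.78 ± 0.79 (log2, SE; edgeR adjusted p = 0.0303). The catalytic subunits PPP1CB, PPP1CA and PPP1CC, which also serve many other substrates, had fold changes of −4.21, −2.87 and −1.65 (log2) (edgeR adjusted p = 0.0172, 0.0185 and 0.0497). PPP1R15B, the constitutive targeting subunit, did not pass and its groups overlapped (−0.64 ± 0.59, edgeR adjusted p = 0.419). None of the tested kinases passed, and EIF2AK3 had too few counts to be tested. EIF2AK4 had an estimate of 1.23 ± 0.45 (edgeR adjusted p = 0.0659), with every Cre library above every Flpo library. Of the 9 tested genes 1 was higher without overlap, beside 15.3% of all tested genes, and 4 were lower, beside 27.8%.

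Among 11 genes of mTOR and kinase control, RHEB alone passed (9.09%, beside 20.5% of all tested genes). RHEB is the small GTPase that activates mTOR (−4.73 ± 0.84, edgeR adjusted p = 0.0167). MKNK1, EEF2K and TSC2 were higher in every Cre library than in every Flpo library, 3 of 11 (27.3%, beside 15.3% of all tested genes). RHEB alone was lower without overlap (9.09%, beside 27.8%). In cap control 1 of 9 genes (11.1%) was lower with Cre than with Flpo, PDCD4, an inhibitor of eIF4A (−2.51 ± 0.60, edgeR adjusted p = 0.0197). In the poly(A)-binding list 1 of 5 (20%) was lower, PAIP2, which displaces the poly(A)-binding protein (−2.56 ± 0.71, edgeR adjusted p = 0.0285). Beside them, 14.3% of all tested genes were called lower. In termination and recycling 2 of 9 were lower with Cre, GSPT1 and GSPT2, both forms of the release factor eRF3 (−2.09 and −3.23, edgeR adjusted p = 0.0347 and 0.0386), beside 14.3% of all tested genes. The GSPT2 groups overlapped, since Flpo replicate 2 at 2.52 CPM lay below all Cre libraries (4.82, 3.68 and 4.25 CPM) and Flpo replicates 1 and 3 stood at 36.2 and 85.7 CPM. RHEB, an activator, and PDCD4, an inhibitor, were both lower in the Cre group.

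Among 15 tested further factors 4 (26.7%) were called lower with Cre than with Flpo, beside 14.3% of all tested genes. They were EIF1AD, EEF1E1, BZW2 and EEF2KMT, the last with overlapping groups. EIF1AD (−4.38 ± 0.68, edgeR adjusted p = 0.0167) resembles EIF1AX in its fold and was the only gene of the 7 lists to pass in Flpo minus Cas9, where it rose (3.73 ± 0.65, edgeR adjusted p = 0.0393). EEF1E1, a scaffold of the tRNA synthetase complex, had a fold change of −2.24 (log2; edgeR adjusted p = 0.0236), with means of 16.8 ± 3.89 CPM with Cas9 alone, 19.7 ± 7.27 with Cre and 95.1 ± 50.6 with Flpo (SD, n = 3 each). In mitochondrial translation 3 of 8 tested genes passed (37.5%), beside 20.5% of all tested genes called in either direction. The elongation factors TUFM and TSFM were lower with Cre than with Flpo, with fold changes of −2.83 and −3.65 (log2; edgeR adjusted p = 0.0318 and 0.0227), whereas GFM1, the mitochondrial translocation factor, was higher in the Cre group (1.83 ± 0.56, edgeR adjusted p = 0.0375).

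Set beside related classes in Cre minus Flpo, 3 of 20 cytosolic tRNA synthetases (15%) and 19 of 85 tested cytosolic ribosomal proteins (22.4%) passed, all lower in the Cre group. Of all tested genes 14.3% were called lower and 20.5% in either direction. Their median estimates were −0.83 and −1.81, against −1.21 for the 44 factors and −0.34 for all tested genes. No test was made between these classes, and nothing particular to the factors is read from them.

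**Figure D5:**
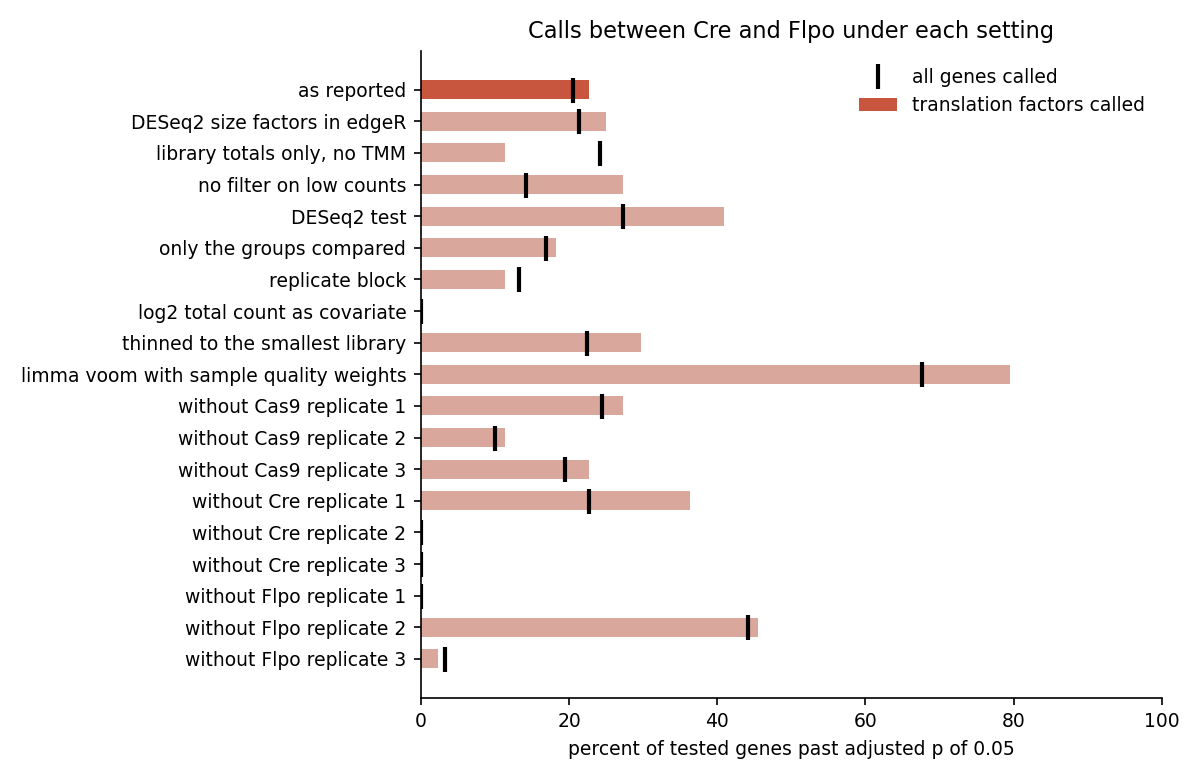
Percent of the tested members (bars) and of all tested genes (black ticks) past an adjusted p of 0.05 in Cre minus Flpo under each way of processing the data and with each library left out. The reported shares are 22.7% and 20.5%, and both are 0 with the library total as a covariate or without replicate 2 or 3 of Cre or replicate 1 of Flpo.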

How the data were processed

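A single table with a column per library holds the estimated counts that the authors deposited, by gene symbol and not normalized. Salmon 0.14.1 and hg38 are named in the submitters' processing notes, and TRIzol extraction and a TruSeq RNA kit in the labels' protocols, which also mention livers although the samples are a cell line. Filters, annotation and strand use are not given in the sources used here. Between 48.7% and 60.8% of the values above 0 were not whole, as estimates from ambiguous reads can be. The design had been written for whole counts, so the estimated counts were rounded.

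edgeR 4.0.16 (R 4.3.3) was run with its quasi-likelihood test on all 9 libraries, with TMM scaling and its default filter (minimum count 10, minimum total 15). Benjamini-Hochberg adjustment ran over 11905 genes, with a threshold of 0.05. The biological coefficient of variation was 0.556. A standard error is the absolute log2 fold change over the square root of edgeR's F. Genes were matched by symbol to GENCODE 29 (35378 of 35876 symbols), and levels per length used the median length of a gene's basic coding transcripts. Shared sequence is the percentage of a gene's 31-base words found in other genes. Within groups the chi-square per degree of freedom between libraries was at least 10.8, so no library was a plain resequencing of another. It cannot tell repeat preparations of the same culture from separate cultures. Flpo replicate 2 stood at 261 and 275 against Flpo replicates 1 and 3, and those stood at 28.6 against each other.

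The members and gene lists were chosen with earlier results of these data known. Values by library are given for up to 15 members past the threshold in Cre minus Flpo, the 2 of smallest p in each other comparison and the most abundant member of each role. Of each pathway list up to 4 genes past the threshold are named. EIF2S2, EIF2B4, EIF3A, EIF4E, EEF2 and the paired ratios were added after their values were seen. Alternatives used DESeq2 1.42.0, limma 3.58.1, other scalings and filters, a replicate block, depth and each library left out. In simulated data at the real depths (Cre minus Flpo, 11905 genes), 186 of 200 genes changed 4-fold were recovered at a dispersion of 0.05. At the dispersions estimated from the data, 0 of 200 changed 4-fold and 165 of 200 changed 16-fold were recovered, with 0 and 12 false calls. Only 200 genes were changed there, whereas 2440 of all tested genes were called in the data. The p-value needed to pass thus differed, and the recovered shares do not carry over to the real comparison.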

Additional observations from a re-analysis of the deposited data

How the results depend on the processing

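In Cre minus Flpo the number of members past the threshold was 10. It was 5 without TMM scaling (24.2% of all genes), 18 with DESeq2 (27.3%) and 35 with limma voom sample weights (67.6%). With the log2 library total as a covariate it was 0 (0% of all genes), and it was 0 to 20 when single libraries were left out. Without Cas9 replicate 2 it was 5 (10% of all genes), without Cre replicate 1 it was 16 (22.7%) and without Flpo replicate 2 it was 20 (44.1%). The 10 called members had estimates below 0 in each setting that tested them, but with the covariate these ran from −3.38 for EIF2S3 to −0.13 for EIF4H and −0.044 for EIF2S1. For Flpo minus Cas9, with 0 called, 4 passed without the filter (4.6% of all genes), 4 with DESeq2 (7.55%) and 24 with voom (61%). With libraries left out 0 to 7 passed, the 7 without Flpo replicate 2 (21.3% of all genes). For Cre minus Cas9, 22 passed with voom (33.3% of all genes) and 0 with any library left out. For any difference, with 4 called, 1 passed without TMM (8.09% of all genes), 10 without the filter (12.3%) and 12 with DESeq2 (19.7%). With the covariate 0 passed (0%), and with voom 36 (79.6%). With libraries left out 0 to 14 passed, the 14 without Flpo replicate 2 (33.3% of all genes). For the pathway lists, with 16 called, 0 passed with the covariate (0% of all genes), 8 of 31 testable after thinning (22.4%) and 43 with voom (67.6%). With libraries left out 0 to 29 passed, the 29 without Flpo replicate 2 (44.1% of all genes).

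The members' median in Cre minus Flpo was −0.41 without TMM, −1.78 with voom and 0.10 with the covariate, and −1.81 to −0.97 with libraries left out. In Flpo minus Cas9 it was −0.34 with the covariate and 0.36 to 0.86 with libraries left out, and in Cre minus Cas9 −1.20 to −0.36. Under the covariate the estimates of EIF6, EIF4A1 and EEF1G in Cre minus Flpo became 0.57, 0.070 and 0.61. The cause was not tested.

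With replicate number as a block, 5 members and 10 pathway genes passed in Cre minus Flpo (13.2% of all genes). In any difference 1 member passed (3.58%), and in each of the other comparisons 0 members passed. Deviations of same-numbered libraries correlated on average at −0.33 in Cre and Cas9, −0.09 in Flpo and Cas9 and 0.12 in Cre and Flpo, with single numbers from −0.55 to 0.53. The correlations thus showed no common sign. They cannot settle whether same-numbered libraries were prepared together, since the deviations rest on 3 libraries per group that differ widely in depth. Depth limits genes near 11 CPM in Cre replicate 2.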
